A study of Sus scrofa with 599 samples.

Results

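The enhancer regions described here are those of the greater omentum (GOM), a visceral adipose depot, in 3 subgroups of weight-gain (WG) pigs, named subgroup 1, subgroup 3 and subgroup 5 in the labels. They are the regions of 3 deposited H3K27ac tables: 23385 regions in subgroup 1, 22471 in subgroup 3 and 25819 in subgroup 5, or 71675 of the 401610 regions in all 18 such tables of the series. All 3 subgroups came from female Bama pigs of 2 years on a high-fat diet of 22 weeks. The labels give no difference of diet, time or genotype between them, and the study formed the subgroups by the cell composition that it estimated from RNA-seq.

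Each table was made from pooled reads. The pool of subgroup 1 holds the H3K27ac samples of replicates 7, 21 and 33, that of subgroup 3 replicates 15, 28, 38, 41 and 45, and that of subgroup 5 replicates 14, 20, 25, 30, 42, 43 and 46. The input pools hold the same replicates, except that only 4 of the 7 replicates of subgroup 5 have an input (14, 20, 25 and 30). One pooled table a subgroup leaves no replicate error, so the differences of H3K27ac signal below are differences between 3 tables and carry no p-value. The number of reads behind a table is not given in it, and its depth is therefore unknown.

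Acetylation of lysine 27 of histone H3 (H3K27ac) marks active enhancers and promoters. Stretches with an unusually large total of the mark are called super-enhancers, and they often lie at genes that define a cell type. Adipose tissue is a mixture in which lipid-filled adipocytes lie beside macrophages, endothelial cells, pericytes, lymphocytes and fibroblast-like progenitors, and the omentum also has a mesothelial lining. In such bulk tissue, fewer cells of a type and less of the mark per cell cannot be told apart.

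Windows of 300 bases show what regions found in 1 subgroup only look like at sequence level. They are the centres of single-peak regions that were first or next by net signal per base (H3K27ac minus input, divided by length) among such regions of their table, read from build Sscrofa11.1 on the plus strand. Their regions had 0.863 (IFITM3), 0.470 (ESCO1) and 0.427 (BAZ1A) per base. The median of all regions found in 1 subgroup only was 0.0542 in subgroup 3 and 0.0506 in subgroup 5. The windows are thus not typical of such regions. Capitals mark a match to a searched motif, and only the BAZ1A window has one.

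IFITM3, intron, subgroup 3, chr2:129051-129350: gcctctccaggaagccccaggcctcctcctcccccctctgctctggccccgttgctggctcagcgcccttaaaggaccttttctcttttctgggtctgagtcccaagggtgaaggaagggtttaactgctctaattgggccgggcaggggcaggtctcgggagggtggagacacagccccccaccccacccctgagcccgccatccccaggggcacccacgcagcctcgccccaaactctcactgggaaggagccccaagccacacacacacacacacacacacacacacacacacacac

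ESCO1, intron, subgroup 3, chr6:106787051-106787350: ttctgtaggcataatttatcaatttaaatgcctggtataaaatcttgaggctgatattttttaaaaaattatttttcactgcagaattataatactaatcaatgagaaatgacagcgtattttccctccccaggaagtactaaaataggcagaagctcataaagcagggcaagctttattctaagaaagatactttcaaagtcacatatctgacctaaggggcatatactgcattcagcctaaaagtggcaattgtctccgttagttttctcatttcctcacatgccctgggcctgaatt

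BAZ1A, intron, subgroup 5, chr7:64973051-64973350: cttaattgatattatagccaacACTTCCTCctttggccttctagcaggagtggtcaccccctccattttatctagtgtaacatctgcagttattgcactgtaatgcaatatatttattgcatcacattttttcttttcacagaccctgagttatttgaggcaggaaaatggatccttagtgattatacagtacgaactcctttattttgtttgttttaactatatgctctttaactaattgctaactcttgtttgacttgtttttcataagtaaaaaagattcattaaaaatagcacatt

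At IFITM3, which encodes an interferon-induced antiviral membrane protein, the region of 10.8 kb had a signal of 1.05 per base in H3K27ac and 0.182 in input. Averaged over the covered length, the input signal of the 3 tables was 0.148 to 0.151 per base. ESCO1 encodes a cohesin acetyltransferase and BAZ1A a subunit of chromatin-remodelling complexes, and their windows are 35.7% and 33% G or C.

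The capitals in the BAZ1A window are the PU.1 core, searched as GAGGAAGT on both strands. PU.1 is the main transcription factor of macrophages and other myeloid cells. Over the central 300 bases of the regions, this core was found in 1.95% of windows in subgroup 1, 1.96% in subgroup 3 and 1.82% in subgroup 5. Among regions found in 1 subgroup only, the shares were 1.75%, 1.81% and 1.73%. The AP-1 motif TGACTCA was in 5.12%, 5.35% and 5.22% of all windows, and in 4.95%, 4.90% and 4.98% of those found in 1 subgroup only. The ETS motif CCGGAAGT, which shares its GGAAGT core with that of PU.1, was in 0.369% to 0.389% of windows, the C/EBP motif TTGCGCAA in at most 15 windows of a table, and the PPARG DR1 motif in at most 2. No motif therefore had a share that set 1 subgroup apart.

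The tissue label was checked against defining genes. ADIPOQ, which encodes the adipocyte hormone adiponectin, had its start inside a region in all 3 subgroups, as in all 15 other tables. WT1, a transcription factor of mesothelium and of visceral adipose progenitors, lay in a super-enhancer in each subgroup, at rank 339, 319 and 608. The start of TCF21, a visceral progenitor factor, was inside a region in subgroups 1 and 3, and in subgroup 5 its region did not reach the start. Not all such genes did so. Of 24 adipocyte lipid-storage genes, 12, 13 and 14 had a start inside a region, and of 10 visceral lineage factors 5, 6 and 6. The starts of LEP, GPAM, DGAT2 and GATA4 were in no region of any subgroup. Of 12 transcription factor genes of subcutaneous patterning (the HOXC, HOXD, IRX, TBX15, EN1, SHOX2 and ZIC1 genes), 0, 1 and 0 had a start inside a region, beside 37.98%, 41.91% and 43.59% of all 18708 protein-coding genes.

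The 3 tables covered similar amounts of the genome. Regions added up to 441 Mb in subgroup 1, 457 Mb in subgroup 3 and 494 Mb in subgroup 5, and between 65.0% and 68.0% of them were single peaks. The median net signal per base was 0.0847, 0.0867 and 0.0821. The 10 best ranks of more than 1 table included FOXO1, GRK5, ZNF217, IRF2BP2, COL5A1, SSBP3 and ZMIZ1.

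Ranks moved with the boundaries of the regions. IRF2BP2, a transcriptional corepressor gene, was at rank 2 in subgroup 1, where 1 region of 527 kb with 26 joined peaks spans the gene. In subgroup 5 the same span was held by 28 separate regions, the best of them at rank 409. Summed over that span, however, the net signal was 118243 in subgroup 1, 128259 in subgroup 3 and 132679 in subgroup 5. The ranks were far apart, and the signal in the span was not.

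The same held for other leading loci. At GSE1 the best ranks were 8, 55 and 119, and the net signal in the 445-kb span of subgroup 1 was 55397, 64152 and 70871. FOXO1, an insulin-regulated transcription factor, was at rank 6, 76 and 1, and the 546-kb span of subgroup 5 held 70857, 82440 and 84739. GRK5, a kinase of G-protein-coupled receptors, kept ranks 7, 4 and 3. In the 241-kb span of subgroup 3 its net signal was 60819, 74637 and 58729.

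A few leading loci differed in the summed signal of listed regions as well as in rank. The sums count listed regions only, and a stretch without one adds nothing to them. The strongest region of subgroup 1 lay at ZFP36L2, an mRNA-decay factor gene, with a net signal of 180114 over 589 kb. Subgroup 5 had 194470 in that span in 9 regions, and subgroup 3 only 61911 in 4 regions that cover 180 kb of it. At SSBP3 the 256-kb span of subgroup 3 had 51317 in subgroup 1, 66842 in subgroup 3 and 10156 in subgroup 5, where regions cover 48.8 kb. At SIK1, a salt-inducible kinase gene, the span of subgroup 5 had 33787, 43895 and 62481.

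ROSE, the program that ranked the regions, marked 839 super-enhancers in subgroup 1, 1492 in subgroup 3 and 1752 in subgroup 5. The smallest net signal that counted as a super-enhancer was 12149, 9659 and 8519, respectively. The 3 curves of net signal against rank nevertheless lay close together. The 839 best regions of each table held 32.9%, 33.3% and 31.2% of the net signal. The smaller number in subgroup 1 thus came with a higher cutoff on a similar curve.

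**Figure D1:**
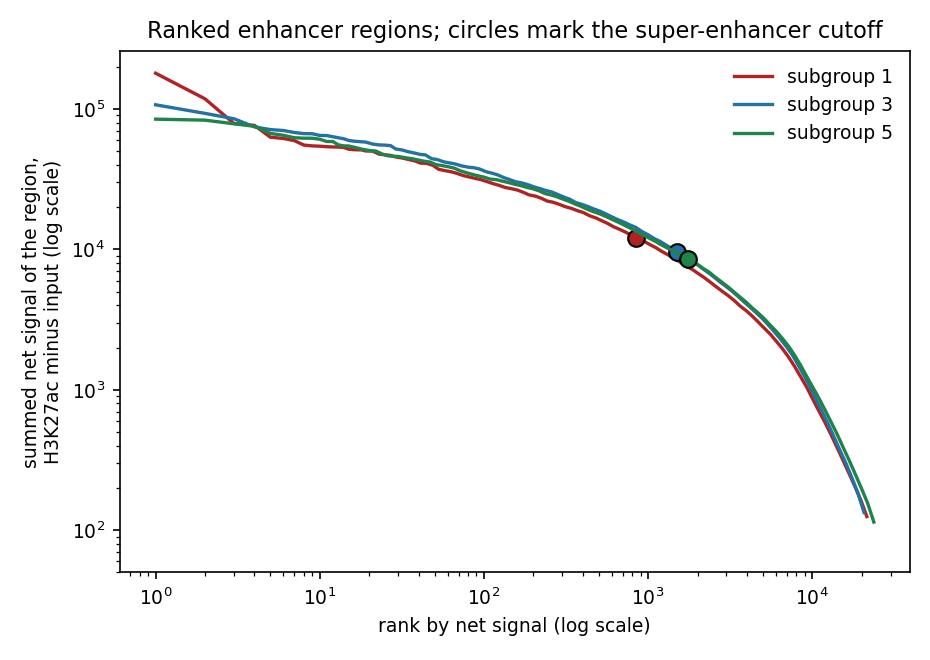
Summed net signal (H3K27ac minus input, log scale) of each region against its rank (log scale) in the 3 pooled tables, with circles at the super-enhancer cutoff. The curves run together over most ranks while the circles sit at ranks 839, 1492 and 1752.

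Of the super-enhancers of subgroup 1, 92.1% overlapped a super-enhancer of subgroup 5 and 87.0% one of subgroup 3. Of those of subgroup 5, only 47.0% overlapped one of subgroup 1, and 73.8% one of subgroup 3. With the 839 best regions taken from each table, all 6 shares lay between 73.2% and 74.9%. Between 95.6% and 99.5% of super-enhancers overlapped a region of some rank in the other table.

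The net signal inside the span of a super-enhancer was within 1.5-fold in the other table for 93.2% of those of subgroup 1 measured in subgroup 5 and for 84.6% in the reverse direction. The lowest such share was 79.5%, for those of subgroup 3 measured in subgroup 1, where the median ratio was 0.796. These spans were chosen for their high signal in 1 table, and the ratios are not independent of that choice. Between 32.4% and 47.9% of the spans were divided into more than 1 region in the other table.

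By nearest gene start, 10786 of 14385 genes had a region in all 3 subgroups. Super-enhancers were assigned to 1254, 2443 and 2764 genes, and 919 of 3376 genes had one in all 3. The genes with a super-enhancer in all 3 subgroups included RXRA, CEBPB, CEBPD, FOXO1, TCF7L2, EBF1 and KLF15 among adipogenic transcription factors, CDH5, PECAM1, SOX18 and FLI1 among endothelial genes, and UPK3B, WT1 and GPM6A among mesothelial ones.

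Sharing followed rank. The regions of the 3 tables merged into 23954 loci over 604 Mb, and 14550 of them (60.7%) had a region in all 3. In the best 10% of ranks of each table, 94.8%, 98.6% and 94.3% of regions overlapped a region in both other subgroups. In the last 10% the shares were 46.90%, 20.996% and 24.79%. Weak regions of subgroup 1 were thus overlapped more often than those of the other tables.

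**Figure D2:**
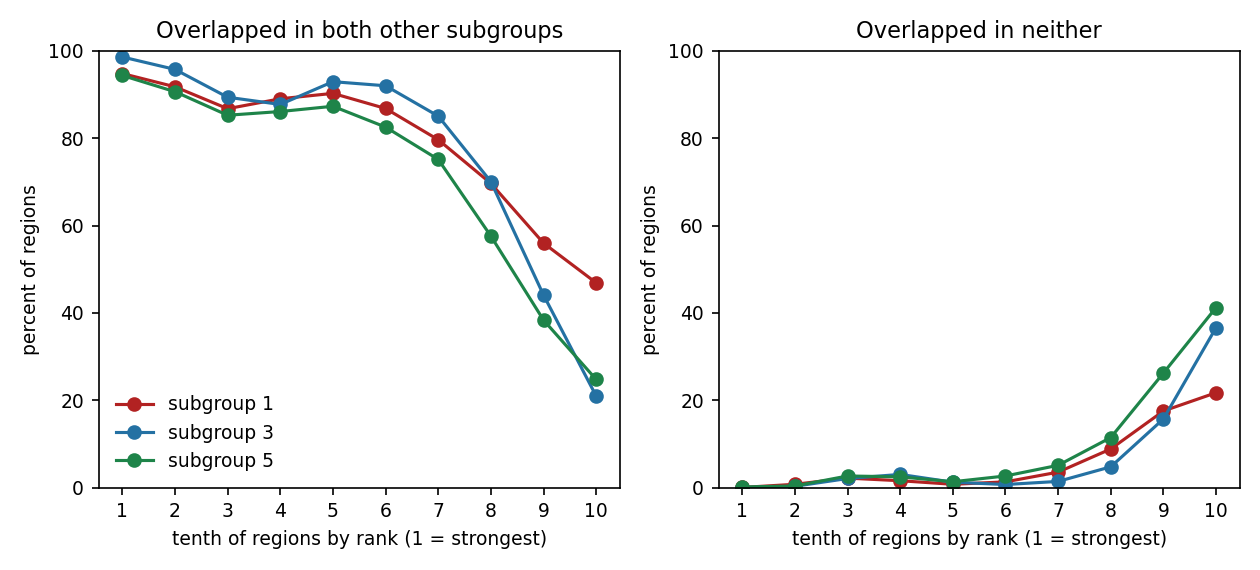
Share of regions (percent) that overlap a region in both other subgroups (left) or in neither (right), by steps of 10% of rank within each pooled table. Sharing stays above 80% through the first 60% of ranks in every subgroup and then falls, and in the last 10% 21.8%, 36.7% and 41.2% of regions overlap neither.

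Over all regions, 88.9% of those of subgroup 1 and 88.3% of those of subgroup 3 overlapped a region of subgroup 5. In the other directions the shares were 80.7% (subgroup 5 in 1), 82.1% (5 in 3), 84.4% (1 in 3) and 82.7% (3 in 1). The omental tables of the normal-diet (NC) and weight-loss (WL) groups overlapped 80.1% to 87.6% of the regions of the 3 subgroups. The tables of the other adipose tissues overlapped 55.9% to 83.2%. The shares between subgroups and those with the omentum of pigs on other diets thus lay in the same range. The smallest gap between regions was 12601 bases in the omental NC table and 801 in the other omental tables. Values of the NC table are therefore not strictly comparable.

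The regions found in 1 subgroup only were short and weak. They numbered 1374, 1491 and 2430, which is 5.88%, 6.64% and 9.41% of the regions but 0.936%, 0.843% and 1.18% of the net signal. Their median length was 2999, 2799 and 2999 bases, against 10399, 12999 and 11799 for regions shared by all 3. Between 86.0% and 90.5% of them overlapped a region in at least 1 of the 15 other tables.

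The 5 strongest regions of this kind in subgroup 1 lay at MEF2D (rank 234, a super-enhancer), HMOX2, CD9, STARD3 and CDIP1, and in subgroup 3 at IFITM3 (rank 1572), WDR74, LOC102160336, KDELR1 and MBOAT7. In subgroup 5 they lay at LOC106504796 beside SEPT9 (rank 177), ELL (rank 519) and CD93 (rank 1231), all super-enhancers, and at CDRT4 and CCDC157. The CD93 region lay 14359 bases from the CD93 start, which was inside other regions of subgroup 1 (rank 720) and subgroup 5 (rank 634). The CD9 region lay 10384 bases from the CD9 start, which was inside other regions of subgroup 1 (rank 1019) and subgroup 5 (rank 749). HMOX2 encodes a haem oxygenase, ELL an elongation factor of RNA polymerase II and CD93 a receptor of endothelial and myeloid cells. Each of the 15 regions overlapped a region in 9 to 15 of the 15 other tables.

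Regions found in 1 subgroup only also differed in base composition and compartment between subgroups. The median share of G and C was 41.1% in loci found only in subgroup 1, 45.8% in those of subgroup 3 and 49.3% in those of subgroup 5. Compartment A, the more active part of the genome in Hi-C, held 59.0%, 67.8% and 71.7% of them, beside 77.3% of loci found in all 3. The part that base composition plays in these differences between pools was not tested.

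A small number of strong regions were missing from 1 table. Of 1752 super-enhancers of subgroup 5, 77 (4.39%) overlapped no region in subgroup 3 and 13 (0.742%) none in subgroup 1. Of 839 super-enhancers of subgroup 1, 26 (3.10%) had none in subgroup 3 and 9 (1.07%) none in subgroup 5. Of 1492 of subgroup 3, 7 (0.469%) had none in subgroup 1 and 13 (0.871%) none in subgroup 5. The table of subgroup 3 lacked the most.

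The missing regions shared a form. Between 65.4% and 93.5% of them were single peaks, against 28.7%, 35.6% and 41.4% of all super-enhancers of subgroups 1, 3 and 5. Of the 77 that subgroup 5 had and subgroup 3 lacked, 75 were present in at least 12 of the 15 other tables, and of the 26 of subgroup 1, 25. The study kept a pooled peak only where at least 50% of the replicates had a peak with at least 50% overlap. It also ran ROSE with a setting of 2 kb around a start to exclude promoter regions. The part of these steps was not tested. The tables list regions that passed, so a region that a table lacks is not evidence that its chromatin had no signal.

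ZMIZ1, a transcriptional coactivator gene, was the largest such case. Its start lay in a single-peak region of 243 kb at rank 3 in subgroup 3 and in one of 168 kb at rank 8 in subgroup 5. In subgroup 1 no region lay between 28.1 kb upstream of the start and 220 kb downstream of it, while super-enhancers lay next to the gap on its upstream side. Regions at this start were present in all 15 other tables.

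COL5A1, which encodes a chain of the fibrillar collagen type V, and its neighbour RXRA, a nuclear receptor partner of PPARG, shared 1 super-enhancer at rank 2 in subgroup 3 and 1 at rank 4 in subgroup 5. In subgroup 1 the super-enhancer (rank 18) ended 28.02 kb upstream of the COL5A1 start, and the next region began 16.4 kb downstream. In the 271-kb span of subgroup 5 the net signal was 52802 in subgroup 1, 68295 in subgroup 3 and 75390 in subgroup 5.

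CEBPA, a master transcription factor of adipocyte differentiation, had its start in a region of 21.6 kb at rank 3139 in subgroup 3 and in a super-enhancer of 67.6 kb at rank 957 in subgroup 5. The nearest region of subgroup 1 was 3.2 kb long, at 6.69 kb from the start, with a net signal per base of 0.0427. All 15 other tables had a region at this start. ACTB, which encodes cytoskeletal beta-actin, was in a super-enhancer at rank 450 in subgroup 1 and rank 372 in subgroup 5, and no region of subgroup 3 held its start. A gene as widely active as ACTB thus lacked a region in 1 table.

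**Figure D3:**
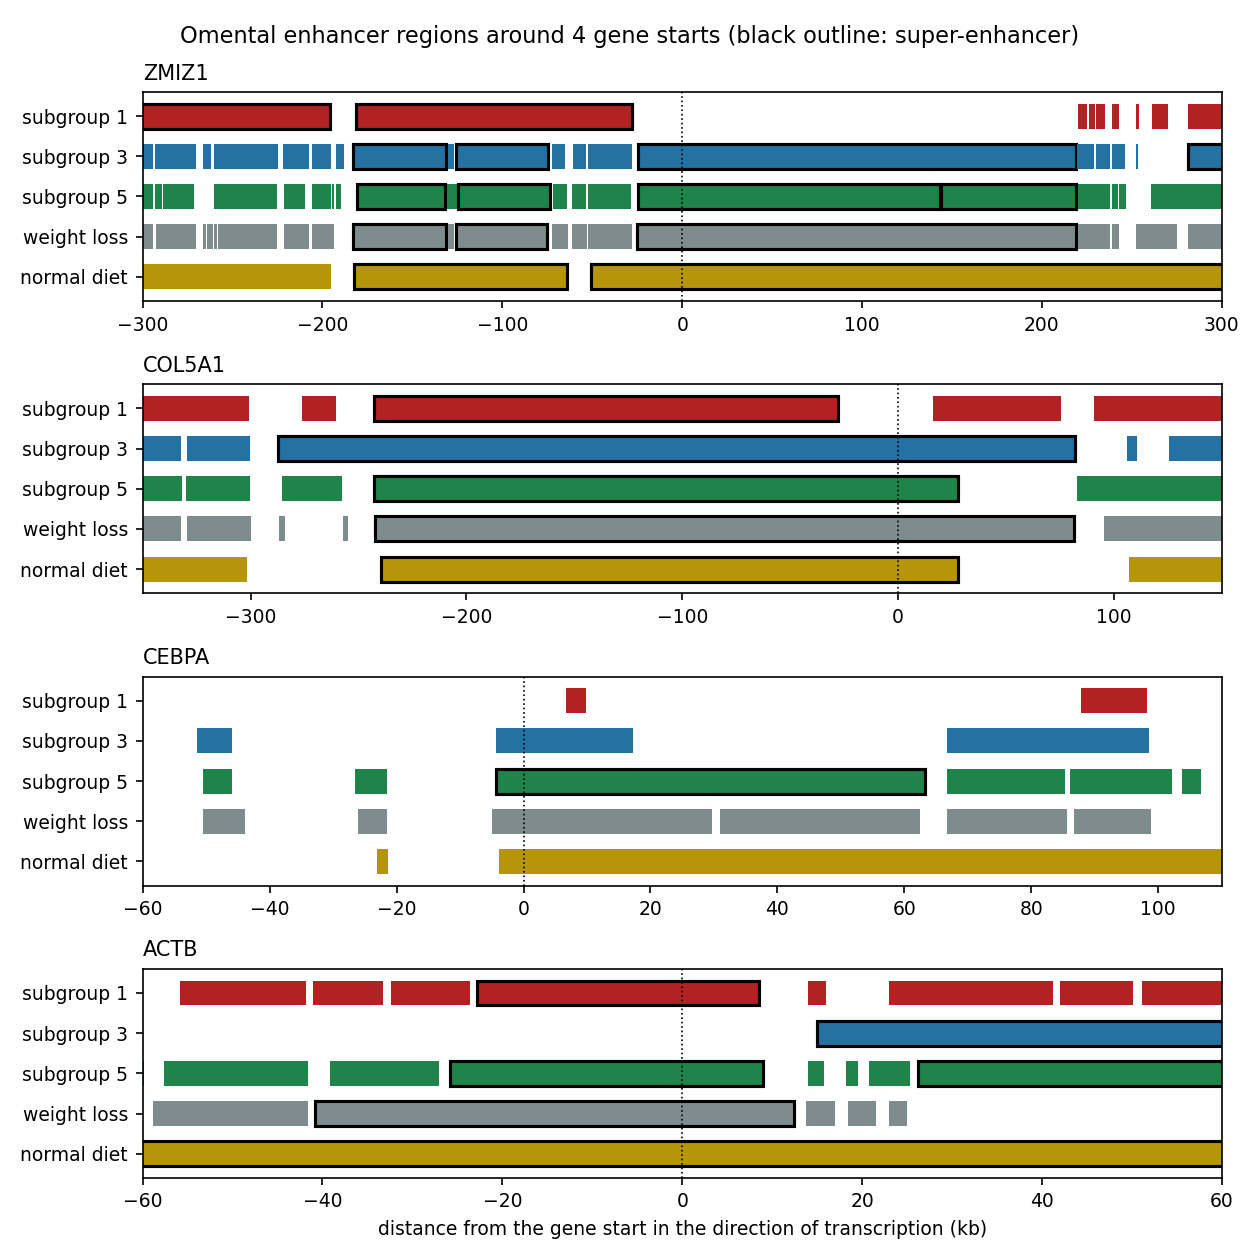
Enhancer regions of the omental tables (rows: the 3 WG subgroups, weight loss, normal diet) around the starts of ZMIZ1, COL5A1, CEBPA and ACTB, by distance from the start in the direction of transcription (kb), with super-enhancers outlined. The row of subgroup 1 is empty at the starts of ZMIZ1, COL5A1 and CEBPA, and the row of subgroup 3 at that of ACTB. The smallest gap between regions is 12601 bases in the normal-diet table and 801 in the others.

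Other named genes showed the same pattern. The start of KLF6, a transcription factor gene, lay in super-enhancers of subgroup 1 (rank 214) and 5 (rank 143) and in no region of subgroup 3. MEF2D, a transcription factor gene known from muscle, was in a super-enhancer only in subgroup 1 (rank 234), with regions at its start in all 15 other tables. SREBF1, which drives fatty acid and triglyceride synthesis, was at rank 853 in subgroup 1 and rank 35 in subgroup 5 and had no region in subgroup 3. The region of subgroup 5 spans 160 kb and also holds the start of RAI1, which had a separate super-enhancer in subgroup 1 (rank 614). SBNO2, MIDN and IER2 had super-enhancers in subgroup 1, at rank 123, 221 and 464, and none of the 3 starts had a region in subgroup 5.

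Signal was compared over loci with a region in both tables of a pair, as log2 ratios of net signal per base centred on the median of all such loci. Between subgroups 1 and 5, 2679 of 15982 loci were over 1.5-fold higher in subgroup 1 (16.8%) and 2327 lower (14.6%). Between subgroups 3 and 5, 2290 of 16254 were higher in subgroup 3 (14.1%) and 2050 lower (12.6%). Between subgroups 1 and 3, 2421 of 15403 were higher in subgroup 1 (15.7%) and 2238 lower (14.5%). Before centring, the median log2 ratio was -0.05, 0.08 and -0.13, and without centring the last split became 1870 higher and 2880 lower.

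The subgroups differed from each other by shares like those from the WL table, and by smaller shares than those from the NC table. With loci merged for each pair of omental tables, 26.005% to 31.02% of loci passed 1.5-fold for pairs of subgroups, 24.9% to 31.5% for a subgroup and WL, 43.8% to 48.4% for a subgroup and NC, and 47.8% for NC and WL. The NC table, as said above, had a larger smallest gap between regions. The ranks of signal per base were correlated across loci, with Spearman's rho of 0.727, 0.764 and 0.733. Loci are not independent replicates, and the rho is a description.

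Weak loci passed the threshold more often than strong ones. Between subgroups 1 and 5, 51.9% of loci in the lowest 25% by mean signal passed 1.5-fold, and 14.1% of those in the highest 25%. The counts depended on the subtraction of input. Without it, 584 loci (3.64%), 500 (3.07%) and 515 (3.34%) passed 1.5-fold for subgroups 1 and 5, 3 and 5, and 1 and 3.

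Signal per base also depends on how long a region was drawn. MMEL1, a membrane metalloendopeptidase gene, headed the loci higher in subgroup 1 than in subgroup 5 with a log2 ratio of 3.07 per base, but its region was 1.40 kb long in subgroup 1 and 12.2 kb in subgroup 5, and the log2 ratio of summed net signal was 0.08. Loci that passed 1.5-fold the same way on both scales numbered 1050 higher and 1107 lower between subgroups 1 and 5, 874 and 677 between 3 and 5, and 801 and 1058 between 1 and 3. Of the loci of subgroups 1 and 5, 442 that were higher per base were lower summed, and 287 the reverse.

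Among the 20 loci that led the comparison of subgroups 1 and 5, 10 passed on both scales. Higher in subgroup 1 were the loci of USP34, a deubiquitinase gene, with log2 ratios of 2.73 per base and 4.97 summed, EFCAB2 (2.46 and 5.55), STIM2, a calcium sensor of the endoplasmic reticulum (2.32 and 2.46), and PPP2CA, the catalytic subunit of protein phosphatase 2A (2.31 and 4.10). Lower in subgroup 1 were those of TRA2B, a splicing factor (-2.68 and -3.07), SURF6 (-2.35 and -3.78), TM9SF3 (-2.15 and -4.20), NPR2, a receptor of C-type natriuretic peptide (-2.02 and -4.28), ZNF76 (-1.99 and -2.41) and PSMD1, a proteasome subunit (-1.98 and -4.03). STIM2 is the one whose covered length was equal in both tables. In 17 of the 20 loci the covered length differed over 2-fold.

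Of the 10 leading loci between subgroups 3 and 5, 4 passed on both scales: NUP43, a nuclear pore gene, was higher in subgroup 3 (2.38 and 4.18), and SUFU, WBP4 and CHD1 were lower. Of those between subgroups 1 and 3, 4 of 10 did so. Among them, CAPRIN1 (2.07 and 3.98) and ATP23 (2.10 and 1.12) were higher in subgroup 1, and SURF6 (-2.26 and -3.71) was lower. SURF6 was thus lower in subgroup 1 than in each of the other subgroups, comparisons that share the table of subgroup 1.

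For genes, the signal of all regions assigned to the nearest start was combined. Between subgroups 1 and 5, 1499 of 11557 genes were over 1.5-fold higher in subgroup 1 per base (13%) and 1533 lower (13.3%). On both scales these were 583 (5.04%) and 893 (7.73%). Between subgroups 3 and 5 the shares per base were 11.7% higher and 10.8% lower, and between subgroups 1 and 3 they were 12.6% and 13.5%.

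Macrophage genes leaned lower in subgroup 1 by this measure. Of 27 with a region in both tables, 0 were higher per base and 8 lower in subgroup 1 than in subgroup 5. Over all genes these shares were 13% and 13.3%. The median log2 ratio of the list was -0.41. Summed, the median was -0.22, with 3 higher and 8 lower, and without input subtraction the median per base was -0.10. On both scales 5 were lower: IRF8, ADGRE1, LIPA, TREM2 and TYROBP. Their share of 18.5% lies beside the 7.73% of all genes.

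TYROBP, a signalling adaptor of myeloid receptors, had a net signal per base of 0.196 in subgroup 1, 0.409 in subgroup 3 and 0.429 in subgroup 5, with regions of 6.40, 15.6 and 14.8 kb. LIPA, the lysosomal acid lipase, had 0.095, 0.154 and 0.266. IRF8, a transcription factor of the myeloid lineage, was at rank 7633, 2669 and 1000, a super-enhancer only in subgroup 5, and its start had no region in subgroup 1. The list did not move as 1 block, however. SPI1, which encodes PU.1 itself, was at rank 406 in subgroup 1, 1084 in subgroup 3 and 4759 in subgroup 5, with super-enhancers in subgroups 1 and 3, and log2 ratios between subgroups 1 and 5 of 0.39 per base and 2.65 summed.

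Endothelial genes were split. Of 20, 0 were higher and 4 lower per base in subgroup 1 than in subgroup 5, beside 13% and 13.3% of all genes. The median was -0.21 per base and 0.00 summed. PLVAP, a protein of endothelial fenestrae and caveolae, had 0.095, 0.160 and 0.276 per base. VWF, the von Willebrand factor, was at rank 6272, 3137 and 749. Both were lower on both scales, 10% of the list beside 7.73% of all genes. The value of VWF rests on the assignment of regions. Its region at rank 749 in subgroup 5 also holds the start of CD9. In subgroup 1 the CD9 start lay in a separate region of 39.4 kb at rank 1019, which does not count for VWF. CDH5, PECAM1, SOX18, FLI1 and KDR, which define the lineage, had super-enhancers in all 3 subgroups and log2 ratios per base between -0.31 and 0.25. The KDR start itself lay in regions at rank 5891, 2048 and 7919, so the super-enhancers assigned to KDR do not hold its start.

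Of 9 mesothelial genes, 1 was higher and 0 lower per base in subgroup 1 than in subgroup 5, a count near the 13% of all genes that were higher, with a median log2 ratio of 0.35 per base and 0.47 summed. GPM6A, a neuronal and mesothelial membrane glycoprotein, was the one past 1.5-fold, with 0.108 per base in subgroup 1 and 0.065 in subgroup 5. WT1 had 0.335 and 0.273. UPK3B was at rank 130, 86 and 81 with a log2 ratio of -0.01.

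Adipocyte lipid-storage genes showed no common direction. Of 19, 3 were higher and 2 lower per base in subgroup 1 than in subgroup 5, beside 13% and 13.3% of all genes. The median was 0.09 per base and -0.16 summed. CD36, a fatty acid transporter, was higher on both scales (2.49 and 3.58), and PCK1, the enzyme of glyceroneogenesis, was lower (-0.65 and -3.29). The CD36 signal of subgroup 5 came from a region of 0.0165 per base at 16504 bases from the start, beside a median of 0.0821 over all regions. PLIN1, which coats the lipid droplet, had a log2 ratio of 0.91 per base and -0.16 summed, and LEP, the leptin gene, 0.72 and -1.09. The LEP regions of subgroup 1 were weak (0.0619 and 0.0422 per base) and lay 67129 and 88729 bases from the start. FASN and LIPE stayed near 0 per base, at -0.03 and -0.02.

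Among 18 adipogenic transcription factors the median was -0.09 per base and -0.16 summed. CEBPA was lower in subgroup 1 on both scales (-1.96 and -6.28), which is the gap described above. MLXIPL, the carbohydrate-response factor, had -0.58 and -3.18. PPARG, the nuclear receptor that directs adipogenesis, had -0.06 per base and -1.31 summed, over 37 kb of regions in subgroup 1 and 100 kb in subgroup 5. A start inside a region was found for 15, 17 and 18 of the 18 genes, and a super-enhancer for 7, 9 and 12, beside 6.42%, 12.5% and 14.1% of all genes.

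The remaining lists gave single genes, beside 5.04% of all genes higher and 7.73% lower in subgroup 1 on both scales. Among 22 inflammation genes, STAT3, a cytokine-activated transcription factor, was higher in subgroup 1 than in subgroup 5 on both scales (0.61 and 1.82), and CXCR4, IL1B and TLR4 were lower. Among 19 progenitor and matrix genes LOX, a collagen cross-linking enzyme, was higher (0.93 and 1.12) and COL5A1 lower (-0.90 and -2.90). The value of COL5A1 rests on the assignment of regions, since the super-enhancer of subgroup 1 upstream of it counts for RXRA while the region of subgroup 5 holds the start of COL5A1, and the net signal in that span was 52802 against 75390. Among 8 smooth muscle and pericyte genes NOTCH3 and RGS5 were higher and ACTA2 lower (-1.76 and -1.85).

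Among 19 T and B cell genes CXCR5, a chemokine receptor of B cells, was higher on both scales (1.01 and 2.39). CXCR5 was in a super-enhancer at rank 149 and 159 in subgroups 1 and 3 and at rank 2677 in subgroup 5. Its transcript was at most 0.22 TPM (transcript abundance scaled for length and depth) in every library of the 3 subgroups. Of 9 visceral lineage transcription factors, NR2F1 was lower on both scales. The median of the 3 subcutaneous patterning genes with a region in both tables changed sign between the scales, from 1.03 to -0.58.

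**Figure D4:**
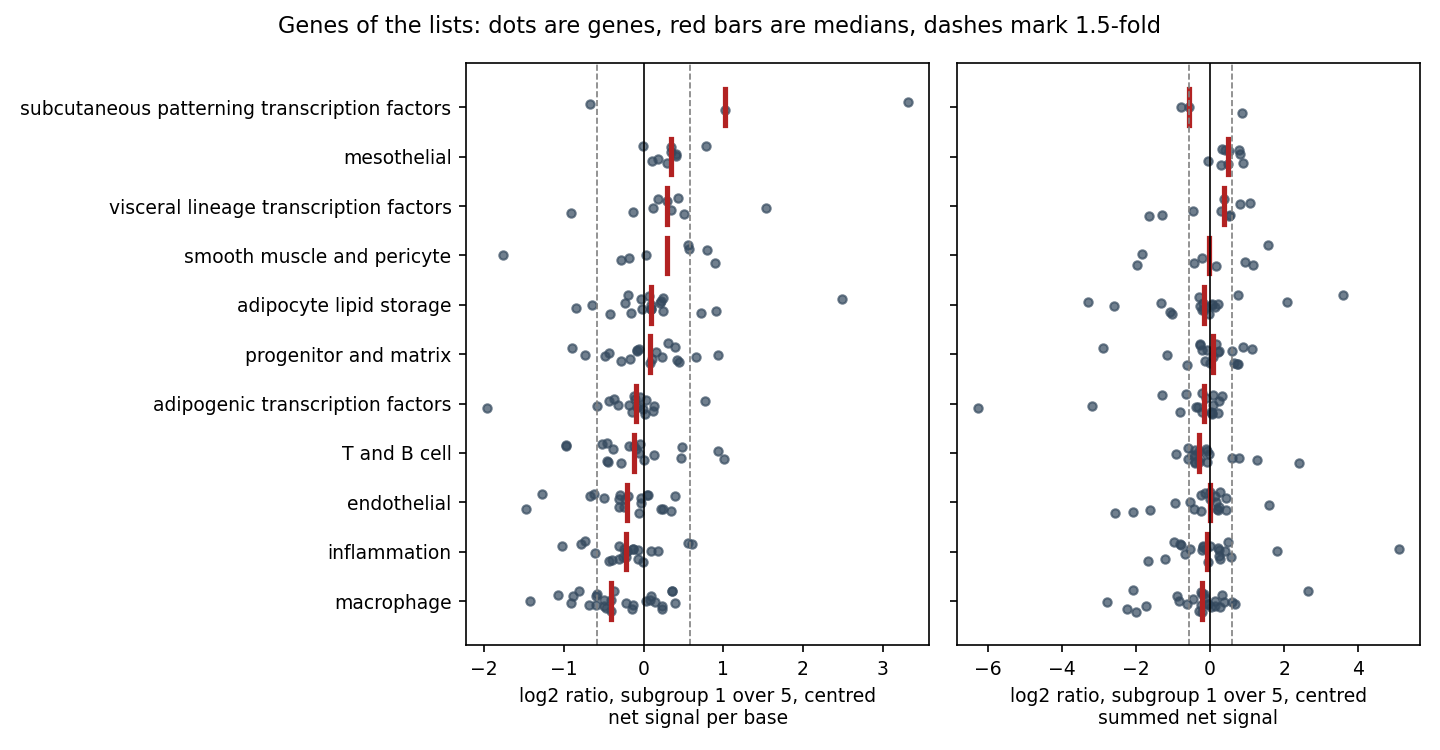
Centred log2 ratios of subgroup 1 over subgroup 5 for each gene of 11 lists, by net signal per base (left) and summed net signal (right), with medians as red bars and 1.5-fold as dashes. The macrophage list has the lowest median per base (-0.41), and its median of summed signal is closer to 0 (-0.22).

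Between subgroups 3 and 5 the lists lay near 0 per base, with medians from -0.13 (macrophage) to 0.11 (adipogenic transcription factors), apart from the 4 subcutaneous patterning genes at 0.72. ADGRE1 and SPP1 were lower and SPI1 higher in subgroup 3 on both scales. These are 8% and 4% of 25 macrophage genes, beside 5.23% and 5.25% of all genes. For subgroups 1 and 3 the macrophage median was -0.28 per base and -0.06 summed. IRF8 and TYROBP were lower and ADGRE1 and SPP1 higher in subgroup 1. The 3 comparisons share tables and are not independent of each other.

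RNA-seq libraries with the same tissue and replicate numbers were used to set transcript levels beside the regions. The subgroups were formed from estimates made on such libraries, so levels are described here without a test. The 15 libraries held 12063063 to 20382840 expected counts each. They fell into 2 sets along the first principal component, which held 51.7% of the variance. The first set has replicate 7 of subgroup 1, 15, 38 and 41 of subgroup 3, and 14, 42, 43 and 46 of subgroup 5, and the second set the other 7 libraries. Of 15341 genes, 2281 lay wholly above and 1305 wholly below in the first set (23.4%). No label names these sets, and their cause was not tested. Values within sets are given where they bear on a result.

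ZMIZ1 shows the size of this split. It had 53.7, 5.7 and 6.4 TPM in replicates 7, 21 and 33 of subgroup 1. In subgroup 3 it had 53.9, 5.9, 40.7, 54.3 and 5.8 TPM, and in subgroup 5 44.7, 12.1, 9.6, 5.2, 53.6, 62.9 and 74.7 TPM, in the order of the replicate numbers given above. All values from 40.7 up are of the first set and all from 12.1 down of the second. The subgroups overlap fully, and the transcript of replicate 7 of subgroup 1 lay within the range of the first-set libraries of the other subgroups, while the pooled table of subgroup 1 lists no region over the gene's start.

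CEBPA, also without a region at its start in subgroup 1, had 40.7, 214.7 and 120.7 TPM in that subgroup. It ranged from 64.1 to 203.7 TPM in subgroup 3 (median 186.5) and from 58.8 to 281.5 TPM in subgroup 5 (median 132.8). COL5A1 had 34.2, 16.7 and 22.1 TPM in subgroup 1, 16.7 to 73.1 TPM in subgroup 3 and 24.8 to 124.5 TPM in subgroup 5. ACTB, without a region at its start in subgroup 3, had 840.9 to 3598.6 TPM there and 765.7 to 4268.2 TPM in subgroup 5. Over all libraries the ranges of these genes overlapped between subgroups, and transcripts were present in every library. Within the sets, however, CEBPA and COL5A1 of subgroup 1 lay below subgroup 5. Of all 15341 genes, 1779 lay below subgroup 5 in both sets, and the first set holds 1 library of subgroup 1. CEBPA had 40.7 TPM against 58.8 to 132.8 TPM in the first set and 120.7 and 214.7 TPM against 220.1 to 281.5 TPM in the second. COL5A1 had 34.2 TPM against 55.6 to 124.5 TPM in the first set and 16.7 and 22.1 TPM against 24.8 to 38.3 TPM in the second. ACTB of subgroup 3 overlapped subgroup 5 within both sets.

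Several lipid-synthesis transcripts were lower in subgroup 1. ACACA, the first enzyme of fatty acid synthesis, had 155.5, 149.9 and 128.0 TPM in subgroup 1, 241.9, 256.5, 436.0, 310.3 and 294.4 TPM in subgroup 3, and 253.4, 458.6, 400.2, 410.9, 314.2, 347.6 and 336.8 TPM in subgroup 5. All 3 libraries of subgroup 1 lay below all of the others. THRSP, a regulator of lipogenesis, had 296.1, 812.6 and 294.3 TPM in subgroup 1, at least 948.0 in subgroup 3 and at least 1097.6 in subgroup 5, again without overlap. FASN, the fatty acid synthase, had 710.1, 317.6 and 114.6 TPM, below the 848.3 to 1937.8 TPM of subgroup 5 but overlapping the 231.2 to 1904.7 TPM of subgroup 3.

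Of 22 adipocyte lipid-storage genes measured, 8 lay wholly below subgroup 5 in subgroup 1 (ACACA, ME1, FASN, GPAM, ACSL1, PLIN1, DGAT2 and THRSP) and 0 above, beside 3.04% of all genes below and 0.254% above. The mean log2(TPM + 1) of the list was 7.08 to 7.66 in subgroup 1, 7.87 to 8.57 in subgroup 3 and 7.97 to 8.67 in subgroup 5. Within the first set it was 7.43 against 7.97 to 8.41 in subgroup 5, and within the second 7.08 to 7.66 against 8.18 to 8.67. ADIPOQ overlapped, with 1389.8 to 3072.5 TPM in subgroup 1 and 1043.5 to 3246.5 TPM in subgroup 5. H3K27ac at these genes gave no common direction, as above.

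**Figure D5:**
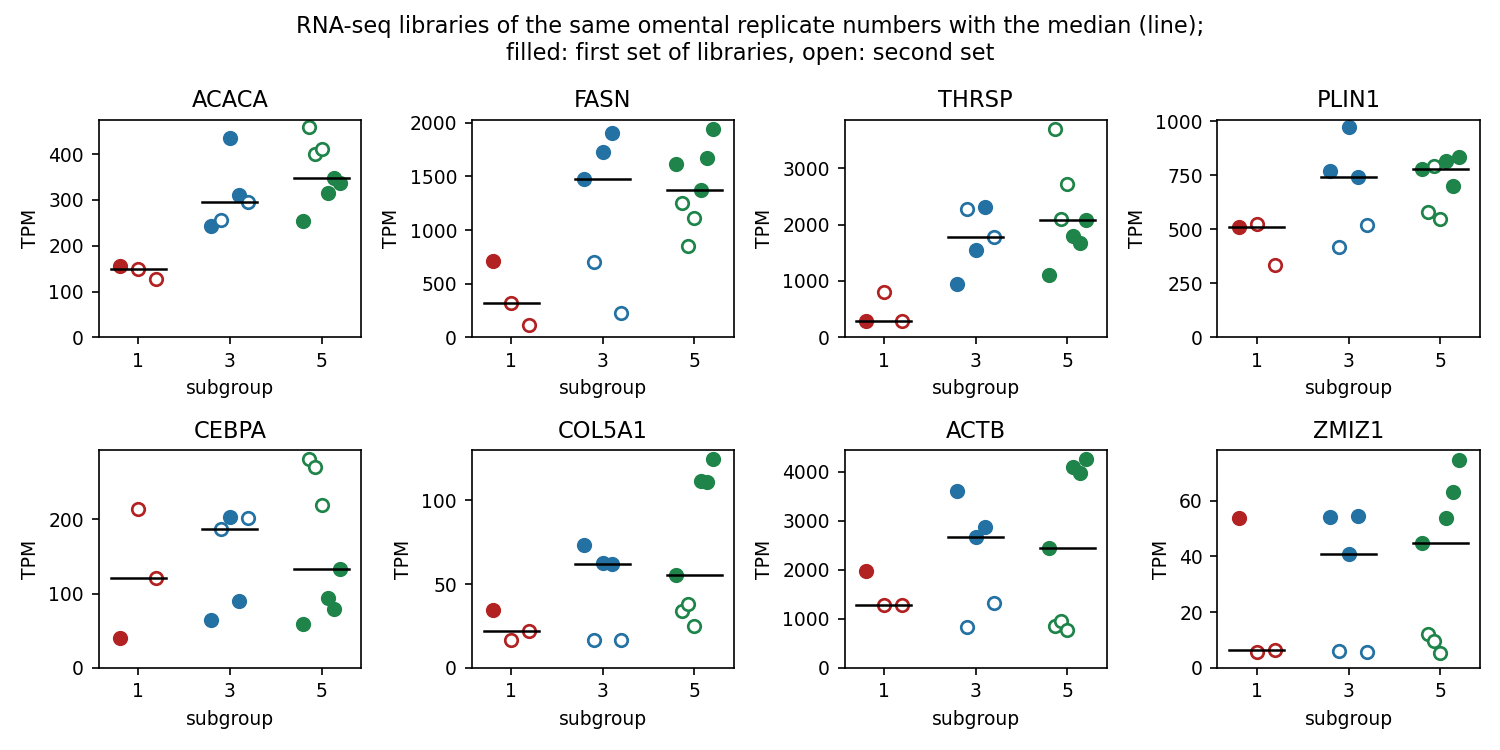
TPM of 8 genes in the RNA-seq libraries of the omental replicates, by subgroup, with the median as a line and filled and open circles for the first and second set of libraries. ACACA and THRSP of subgroup 1 lie below both other subgroups, while ZMIZ1 separates the 2 sets and not the subgroups.

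Macrophage transcripts did not follow the lower H3K27ac of their list. TYROBP had 341.9 to 385.7 TPM in subgroup 1, 262.5 to 402.3 TPM in subgroup 3 and 180.2 to 541.1 TPM in subgroup 5, and LIPA 164.5 to 411.4 TPM, 291.6 to 343.2 TPM and 145.6 to 298.7 TPM. The mean log2(TPM + 1) of the list was 5.90 in the first-set library of subgroup 1 and 5.62 to 6.52 in those of subgroup 5. In the second set it was 6.12 to 6.89 in subgroup 1 and 5.77 to 6.01 in subgroup 5. Ranges thus overlapped in the first set, and in the second subgroup 1 was higher.

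Over all 15341 genes, 39 (0.254%) lay wholly above and 466 (3.04%) wholly below subgroup 5 in subgroup 1. Between subgroups 3 and 5, 1 (0.00652%) lay above and 25 (0.163%) below, and between subgroups 1 and 3, 76 (0.495%) and 188 (1.23%). Leaving out a library can only add to such counts. For subgroups 1 and 5 the 505 genes became 2167 without replicate 7 of subgroup 1, 1072 without 21, 947 without 33 and 934 without replicate 30 of subgroup 5. With ranges compared within each set of libraries, 126 of the 15341 genes were above and 1779 below in both, with 1 library of subgroup 1 in the first set.

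Genes grouped by their H3K27ac signal differed slightly in transcript ratio. With equal weight for both sets of libraries, 60.5% of 392 genes higher in subgroup 1 than in subgroup 5 on both scales had a TPM ratio above the median of all genes. Among 569 lower genes the share was 48.9%. Between subgroups 3 and 5 the shares were 56.8% and 48.1%, and between subgroups 1 and 3 61.3% and 44.8%. Without the equal weight, those for subgroups 1 and 5 were 57.9% and 50.4%. The median differences were small, at 0.08 and -0.01 on the log2 scale in the first comparison.

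The Hi-C samples with the same tissue and replicate numbers gave the A-B index, a score per 20-kb bin, above 0 where a bin belongs to A and below 0 where it belongs to B. By limma with 3, 5 and 7 samples, 0 of 113298 bins (0%) differed at an adjusted p below 0.05 in any of the 3 comparisons. At an unadjusted p below 0.05 there were 3284 bins for subgroups 1 and 5, 1498 for 3 and 5, and 3337 for 1 and 3. Bins in compartment A made up 44.1% to 49.3% of a sample. The lowest adjusted p was 1, and 3 samples in 1 subgroup limit the precision of these comparisons.

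Loci with higher H3K27ac in subgroup 1 lay less often in compartment A. Of those higher per base than in subgroup 5, 68.2% were in A, against 77.6% of those lower and 77.2% of all loci in both. The same loci held a gene start in 20.2%, 28.9% and 34.3% of cases. The bins of these loci had an unadjusted p below 0.05 for the index in 2.84% and 3.19%, beside 2.89% of all bins.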

How the data were processed

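H3K27ac ChIP-seq, RNA-seq and Hi-C of omental samples were used. The authors aligned H3K27ac reads with BWA 0.7.15 to Sscrofa11.1, removed duplicates with SAMtools 1.3.1, pooled replicates, called peaks with SICER and joined and ranked them with ROSE. ROSE was set by the authors to exclude promoter regions, with 2 kb around a start. The deposited tables give H3K27ac and input signal per region, with no read counts. Other deposited columns of these tables hold positions, ranks and marks. TPM and expected counts were estimated by the authors with kallisto 0.43.0, and the deposited A-B index is a compartment score per 20-kb bin.

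Net signal was H3K27ac minus input signal. Regions were overlapped by at least 1 base with bedtools 2.31.1, merged into loci, and assigned to the protein-coding gene of nearest start (NCBI Sus scrofa Annotation Release 106, Sscrofa11.1). Log2 ratios per base were centred on the median, with 1.5-fold as threshold and no test. Expression was described by ranges of TPM over genes with a median of at least 0.5 TPM in a subgroup. The A-B index was tested with limma 3.58.1 in R 4.3.3, with Benjamini-Hochberg adjustment over all bins. The study describes replicates as biological replicates, with each tissue taken from the carcass of a pig, and p-values measure the spread between these samples. Python 3.11.15, pandas 2.3.3 and numpy 2.4.6 were used, and the scripts were tested on simulated data.

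RNA-seq and Hi-C samples were joined to the pools by tissue and replicate number. In each of the TPM, count and A-B index tables, 9 columns that match no sample were not used. Members and gene lists were chosen with earlier results of these data known. Named were the up to 4 genes of a list with the largest ratio per base, the 10 leading loci in each direction between subgroups 1 and 5 and the 5 in the other comparisons, the 10 best ranks of a table, the 5 strongest regions found in 1 subgroup only, and defining markers. Genes named for a missing region, for a super-enhancer in all 3 subgroups or for TPM were chosen after their values were seen. The genes AGPAT2, ITGAX, CYBB, EGFL7, MSLN, ZAP70 and COL6A1 of the lists were not matched by symbol. Some items that these rules select are not reported here.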

Additional observations from a re-analysis of the deposited data

Results flagged for a closer look

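In subgroup 3, the T and B cell list had a mean log2(TPM + 1) of 2.66 in the RNA-seq library of replicate 41, while the other 4 libraries lay between 2.10 and 2.26. In subgroup 5, LHX2, a homeobox transcription factor gene, had 0.47 TPM in replicate 46 and was listed at 0 in the other 6 libraries. Each was the sample farthest from the rest of its group by Dixon's criterion. Chance flags about 1 in 20 groups, and 2 of 68 groups examined met it.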

How the results depend on the processing

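No paired analysis was possible because the subgroups share no replicate number. Each H3K27ac table is 1 pool of unknown depth, so leaving out a replicate was not done there.

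Keeping the best 50% of regions by net signal left 11692, 11235 and 12909 regions in subgroups 1, 3 and 5. With at least 50% of a region covered, with a reciprocal overlap of 50% with 1 region, and in the best 50% of both tables, the overlap of subgroup 1 with 5 was 81.3%, 51.1% and 90.5%, and of 5 with 1 68.4%, 46.3% and 82.9%. For 3 with 5 it was 79.2%, 55.8% and 91.1%, for 5 with 3 73.3%, 48.6% and 83.7%, for 1 with 3 77.1%, 48.3% and 85.6%, and for 3 with 1 70.3%, 50.2% and 85.6%. For super-enhancers, 50% coverage and equal numbers of top regions gave 85.0% and 73.9% for 1 with 5, 44.6% and 74.4% for 5 with 1, 80.0% and 74.7% for 3 with 5, 78.8% and 73.8% for 1 with 3, and 46.9% and 73.2% for 3 with 1. For 5 with 3, 50% coverage gave 69.2%.

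In the order 1 and 5, 3 and 5, 1 and 3, the loci past the threshold numbered 584, 500 and 515 without input subtraction, 2359, 2014 and 2049 at 2-fold, 1973, 1613 and 1820 with 1 region in each table at reciprocal 50%, 2157, 1551 and 1859 on both scales, and 1002, 677 and 809 with 1 region of similar length in each table. Genes numbered 1476, 1228 and 1414 on both scales and 576, 552 and 543 without input subtraction. The last alternatives (both scales, similar length, genes without input) and the comparison within library sets were chosen after seeing the data.

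For subgroups 1 and 5, the median of the adipocyte list was -0.16 summed, and that of the macrophage list -0.10 without input subtraction and -0.22 summed. The median of the subcutaneous list reversed to -0.58 summed between 1 and 5, and with genes within 10 kb of a region to -0.13 between 3 and 5 and to 0.72 between 1 and 3. The cause was not tested. Of 33 list medians, 10 changed sign when summed, 8 within 10 kb, 6 without centring and 1 without input subtraction.

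Leaving out 1 library at a time gave 531 to 2167 genes with separate TPM ranges between subgroups 1 and 5, 32 to 149 between 3 and 5 and 300 to 1389 between 1 and 3, since fewer libraries narrow a range. Between 3 and 5 the count passed 1.5 times the 26 genes without replicates 15 (48), 28 (44), 38 (57), 41 (149) or 45 (50) of subgroup 3, or 14 (62), 25 (44), 30 (50) or 42 (44) of subgroup 5. Between 1 and 3 it passed 1.5 times the 264 without 7 (1389), 21 (927) or 33 (700) of subgroup 1, or 15 (398), 28 (634), 41 (504) or 45 (569) of subgroup 3. Within both library sets the counts were 1905, 200 and 1217. The A-B index gave 0 called bins with quantile normalization, at an adjusted p of 0.1 and without each sample in turn.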
